A study of Mus musculus with 32 samples.

Results

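Ptprv is the mouse gene for a receptor-like protein tyrosine phosphatase, also called Esp or OST-PTP. It was chosen by its measured level, which is higher in Oct-1 mutant cells, so the differences between genotypes are described here without a test, and tests are given for irradiation. All probe sets annotated to the gene or its older names were taken. That gave 1 probe set of 22690 on the first array type (array A) and 0 of 22575 on the second (array B), 1 of 45265 in all, for 1 gene of 18193 named on the arrays.

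The samples were RNA extracts of early-passage primary mouse embryonic fibroblasts, cells grown from embryos and cultured for a short time. The 4 groups were Oct-1 mutant irradiated, Oct-1 mutant unirradiated, wild type irradiated and wild type unirradiated cells, with 4 replicates each. The 16 extracts were each hybridised to both array types, which made 32 arrays. Oct-1, the product of Pou2f1, is a transcription factor with a POU domain. The labels used here state neither the kind of mutant allele, the strain or the embryos behind the replicates, nor the radiation dose or the time after irradiation. With no source for the replicates, the p-values measure the spread between these samples only, which may be technical. The title numbers of the extracts fall into 2 runs: replicates 1 and 2 of every group form the first run and replicates 3 and 4 the second. What the runs stand for is not stated.

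Receptor-type tyrosine phosphatases sit in the cell membrane and take phosphate off tyrosine residues inside the cell. In mice, Ptprv has been described in bone-forming osteoblasts and in Sertoli cells of the testis. In mouse osteoblasts its product has been reported to dampen insulin receptor signalling and thereby the activation of osteocalcin, a hormone made by bone. It has also been reported in mouse cells as a gene that p53 switches on after DNA damage and that takes part in the arrest before DNA replication. The RefSeq annotation (assembly GRCm38.p6) places Ptprv on chromosome 1, between Lgr6 and Ptpn7, overlapping Ptpn7, and classes it as a transcribed pseudogene. Pou2f1 lies on the same chromosome with 463 annotated genes between them in the gene order. The annotation named 0 probe sets for Pou2f1 on either array type, so the level of the mutated gene could not be used to check the labels.

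The log2 probe set values of the replicates within a group correlated at 0.9918 to 0.9983 over array A, and array medians lay between 6.16 and 6.28. A probe set was tested when its mean over the 16 arrays reached the 40th percentile of the array type, 4.96 on array A and 3.36 on array B, which left 13582 and 13502 probe sets. Ptprv averaged 6.20 over the 16 arrays and passed through its mutant values, since both wild type means lie under 4.96. No detection calls were used here, so how far the wild type values stand above the array's background was not measured.

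In irradiated Oct-1 mutant cells the log2 value of Ptprv was 7.97, 8.10, 8.33 and 8.64 in replicates 1 to 4. In unirradiated mutant cells it was 6.49, 6.19, 7.30 and 7.39. Every irradiated mutant extract was above every unirradiated one, and within the unirradiated extracts replicates 3 and 4 were above replicates 1 and 2. In irradiated wild type cells the values were 5.06, 4.89, 4.79 and 5.01, and in unirradiated wild type cells 4.65, 4.44, 5.04 and 4.90. The wild type groups overlap, and all 8 mutant extracts were above all 8 wild type extracts.

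The group means were 8.26 ± 0.29 in irradiated mutant, 6.84 ± 0.59 in unirradiated mutant, 4.94 ± 0.12 in irradiated wild type and 4.76 ± 0.26 in unirradiated wild type cells (log2, SD, n = 4 each). The last pair, the lowest in the order, does not differ beyond its spread. The mean needed for testing, 4.96, was reached in 4 of 4 extracts of each mutant group, 2 of 4 irradiated wild type extracts and 1 of 4 unirradiated ones.

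**Figure D1:**
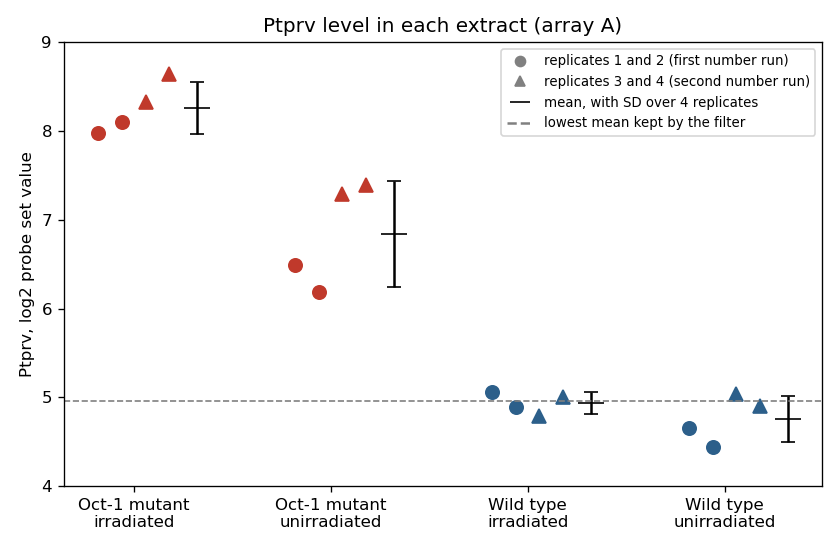
Log2 probe set value of Ptprv in each of the 16 extracts on array A, by group, with circles for replicates 1 and 2, triangles for replicates 3 and 4, and bars for the mean with its SD (n = 4). All mutant extracts lie above all wild type extracts, the irradiated mutant extracts (7.97 to 8.64) lie above the unirradiated ones (6.19 to 7.39), and the wild type groups lie around the dashed line at 4.96.

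The mutant minus wild type difference of Ptprv, the value for which it was picked, was 3.33 on the log2 scale (10.02-fold) in irradiated cells. It was 2.08 (4.24-fold) in unirradiated cells and 2.70 (6.52-fold) averaged over both states. The lowest irradiated mutant extract stood 2.91 above the highest irradiated wild type extract, and the lowest unirradiated mutant extract stood 1.15 above the highest unirradiated wild type extract. Both number runs gave the same direction. Within the first run the difference was 3.06 in irradiated and 1.79 in unirradiated cells, and within the second it was 3.59 and 2.38. These folds hold for the deposited scale, with wild type values near or under the mean needed for testing.

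Xist and Eif2s3y separated the genotypes in every extract of array A. Xist, the RNA that coats the inactive X chromosome of female cells, ranged from 3.16 to 3.29 in irradiated mutant and from 3.16 to 3.29 in unirradiated mutant cells, against 8.19 to 9.55 in irradiated and 8.32 to 9.78 in unirradiated wild type cells. Eif2s3y, a gene of the Y chromosome, ranged from 8.46 to 9.32 and from 8.63 to 9.11 in the same mutant groups, against 3.25 to 4.02 and 3.00 to 3.29 in the wild type groups. By its probe set on array B, Eif2s3y overlapped between genotypes, at 3.34 to 3.55 in mutant and 3.36 to 3.45 in wild type cells. Uty, another Y-linked gene, ranged on array A from 4.28 to 5.91 in irradiated and 5.02 to 5.47 in unirradiated mutant cells, against 3.57 to 4.29 in irradiated and 3.44 to 4.32 in unirradiated wild type cells, which overlaps at the edge. Genotype and the sex of the cells therefore cannot be told apart in the level of Ptprv. Within each genotype, the array A ranges of Xist and Eif2s3y overlapped between irradiated and unirradiated cells.

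Irradiation raised Ptprv in Oct-1 mutant cells. The increase was 1.42 on the log2 scale (SE 0.23), 2.68-fold, with an adjusted p of 0.00169 in limma, a linear model fitted across all tested probe sets with Benjamini-Hochberg adjustment. It was the 24th largest rise among the 13582 tested on array A, where 4.65% of probe sets were called at an adjusted p under 0.05, 2.81% as higher. The replicate numbers pair irradiated with unirradiated extracts, and the 4 paired differences were 1.49, 1.91, 1.04 and 1.25. All 4 are increases, and an exact two-sided permutation test of the group difference gave p = 0.0286, the smallest that 4 against 4 extracts allow. The increase was 1.70 between extracts of the first number run and 1.14 between those of the second. These mutant extracts also enter the genotype difference for which Ptprv was picked, and Ptprv passed the filter through them. The p-values of this increase are therefore not independent of the choice of the gene.

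In wild type cells no such increase was detected. The change of Ptprv was 0.18 (SE 0.23), 1.13-fold, with a limma adjusted p of 0.831, where 3.84% of probe sets were called, 2.33% as higher. The paired differences were 0.41, 0.45, -0.25 and 0.11, with 3 increases and 1 decrease. The exact two-sided permutation test gave p = 0.314. The runs differed in sign, with 0.43 in the first and -0.069 in the second. The mean needed for testing, 4.96, was reached in 2 of 4 irradiated and 1 of 4 unirradiated wild type extracts. As no detection calls were used, whether the probe set can show a rise at this low level was not tested.

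Averaged over both genotypes, the irradiation effect on Ptprv was 0.80 (SE 0.17), 1.74-fold, with a limma adjusted p of 0.00454. In that comparison 12.8% of probe sets were called, 7.38% as higher and 5.47% as lower, and Ptprv was the 106th largest rise. The average joins the mutant effect of 1.42, which was called, with the wild type effect of 0.18, which was not. The limit set by the choice of the gene and by the filter holds for its mutant part.

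Whether the genotypes differ in the response was tested as the difference of the irradiation effects, mutant minus wild type. For Ptprv it was 1.24 (SE 0.33), 2.36-fold, and the highest value of all 13582 tested on array A. Its unadjusted limma p was 0.00188 and its adjusted p 1.00, so it does not pass the correction. The limma test called 0 probe sets (0% of 13582) for this difference, and 147 had an unadjusted p under 0.05. All 4 paired differences of the mutant were above all 4 of the wild type. Ptprv was picked with its values known and passed the filter through its mutant values, so this order is a description. The difference was 1.27 among replicates 1 and 2 and 1.21 among replicates 3 and 4.

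The level of Ptprv was also compared between the number runs, without a test. The second run minus the first was 0.45 in irradiated mutant cells, 1.01 in unirradiated mutant cells, -0.08 in irradiated wild type cells and 0.42 in unirradiated wild type cells. The unirradiated extracts thus carried the larger run difference in both genotypes, and no difference of that size was seen in irradiated wild type cells. Of 13582 probe sets, as many as 462 in irradiated mutant, 44 in unirradiated mutant, 8663 in irradiated wild type and 842 in unirradiated wild type cells had a second-run difference at least as high as that of Ptprv. Cdkn1a, the p53-induced cell cycle inhibitor p21, differed between runs by 0.53 in unirradiated mutant and 0.62 in unirradiated wild type cells. In irradiated cells the difference of Cdkn1a was 0.00 in mutant, where that of Ptprv was 0.45, and -0.01 in wild type. The median of 34 p53 target genes was 0.27 in unirradiated mutant and 0.28 in unirradiated wild type cells, against 0.04 and -0.03 after irradiation. Single targets ranged from -0.35 to 1.03 in unirradiated mutant and from -0.45 to 1.19 in unirradiated wild type cells. After irradiation they ranged from -1.02 to 0.75 in mutant and from -1.16 to 0.90 in wild type cells. The median of all tested probe sets was -0.02 in each mutant group and 0.01 in each wild type group. The part of the runs in the level of Ptprv was not tested beyond the values within each run.

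Genes known to be switched on by p53 were compared with Ptprv as a list. Of 40 listed genes, 36 had a probe set on array A and 34 were tested, of which 24 rose in mutant cells, 24 in wild type cells and 27 on average, while 0 fell in any of the 3 (limma, adjusted p under 0.05). Of all tested probe sets, 2.81% rose in mutant cells, 2.33% in wild type cells and 7.38% on average. The 10 targets that did not pass in mutant cells included Gadd45a, a stress-induced growth arrest gene, at 0.02, and Sesn1, a sestrin, at 0.09, with 0.08 and -0.03 in wild type cells. The median change of all 34 tested targets was 0.75 in mutant and 0.79 in wild type cells, while the median of all tested probe sets was 0.01 in both. Ptprv thus changed by more than the list's median in mutant cells and by less in wild type cells. On array B, 2 of 6 tested targets rose on average, where 2.14% of probe sets were called, 1.61% as higher. For genotype, averaged over irradiation, 4 of the 34 on array A were higher in the mutant and 0 lower. Of all probe sets there 6.57% were higher and 4.02% lower. The genotype differences of the 34 ran from -0.36 to 0.70. With the replicate block 7 were higher and 3 lower, in a fit that called 3060 of 13582 probe sets.

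Dcxr, a carbonyl reductase, averaged 10.52 ± 0.16 in irradiated and 8.77 ± 0.22 in unirradiated mutant cells, and 10.09 ± 0.14 and 8.19 ± 0.11 in irradiated and unirradiated wild type cells. Its increase was 1.75 in mutant and 1.90 in wild type cells. Tap1, a peptide transporter of antigen presentation, rose by 2.45 in mutant and 2.62 in wild type cells. Ei24, an endoplasmic reticulum protein, rose by 0.81 and 0.87, and Ercc5, an endonuclease of nucleotide excision repair, by 1.14 and 1.19 in mutant and wild type cells. Each of these 4 rose at an adjusted p under 0.05 in both genotypes, with increases close to each other. On array B, Eda2r, a receptor of the tumour necrosis factor family, rose by 1.51 on average, and Ppm1d, a phosphatase that switches off the damage response, by 0.59.

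The difference of irradiation effects for the 34 targets ran from -0.41 in Trp53inp1 to 0.49 in Tnfrsf10b, with a median of -0.06. It was above 0 in 11 of 34, was called in 0 of 34, and had an unadjusted p under 0.05 in 0 of 34. For Ptprv, whose wild type values lie around the mean needed for testing, it was 1.24. Tnfrsf10b, like Ptprv, was called in mutant cells alone, at 0.62 (limma adjusted p = 0.0467), against 0.13 (0.827) in wild type cells. Phlda3 was called in wild type cells alone, at 0.73 (limma adjusted p = 0.0206), against 0.60 (0.0561) in mutant cells. The targets on this list were chosen with earlier results of these data known, so the counts describe them and do not test the list.

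**Figure D2:**
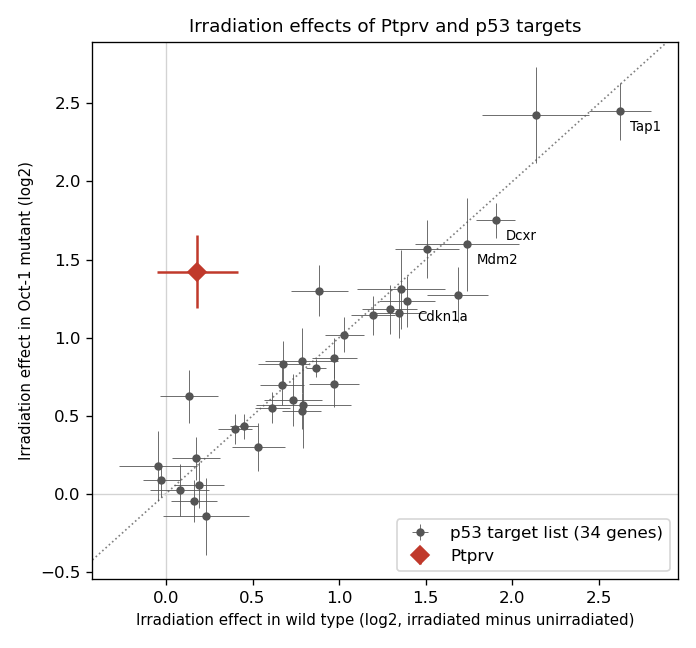
Irradiation effect (log2, irradiated minus unirradiated) in Oct-1 mutant cells on the vertical axis against that in wild type cells on the horizontal axis, for Ptprv (red diamond) and 34 p53 target genes (grey), with bars for the SE of the fit. The targets lie on either side of the dotted line of equal effects, with mutant minus wild type differences from -0.41 to 0.49. Ptprv lies above the line at 0.18 in wild type and 1.42 in mutant cells.

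Upstream of the targets, 13 genes that sense damage or set the level of p53 were tested on array A, of which 3 rose and 3 fell on average over the genotypes, against 7.38% and 5.47% of all probe sets. Mdm2, the ubiquitin ligase that p53 induces and that degrades p53, rose by 1.67 (1.60 in mutant and 1.74 in wild type cells). Ppm1d rose by 0.82 and Chek2, a kinase that passes on the damage signal, by 0.40. The falls were 0.35 for Usp10 and 0.22 for Usp7, which remove ubiquitin, and 0.30 for Atr, a damage-sensing kinase. On array B, 1 of 11 rose, Ppm1d, and 0 fell. In mutant cells the change of Mdm2, 1.60 (SE 0.30), and that of Ptprv, 1.42 (SE 0.23), differed by less than either SE. For genotype, averaged over irradiation, 0 of the 13 were higher in the mutant and 3 lower, against 6.57% and 4.02% of all probe sets. Their differences ran from -1.31 to 0.39. The lowest was that of the damage-sensing kinase Atm, which differed by -0.19 on array B and was not called there.

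On array A, 22 genes of the arrest before DNA replication were tested. On average 4 rose and 2 fell, against 7.38% and 5.47% of all probe sets. With the replicate number as a block 7 rose and 2 fell, in a fit that called 3418 of 13582 probe sets, against 1745 without it. Cdkn1a averaged 12.59 ± 0.13 in irradiated and 11.35 ± 0.32 in unirradiated mutant cells, and 12.43 ± 0.05 and 11.04 ± 0.36 in irradiated and unirradiated wild type cells. Its increase was 1.23 in mutant and 1.39 in wild type cells. Cdkn1a, unlike Ptprv, thus rose at an adjusted p under 0.05 in both genotypes, although the 2 genes' difference of effects was not compared by a test. Rb1, the retinoblastoma protein that holds back entry into replication, rose by 1.40, E2f1, a transcription factor of that step, by 0.33, and Cdt1, which loads the replication helicase, by 0.27. Cdkn1b, a second inhibitor of cyclin-dependent kinases, fell by 0.77 and the cyclin Ccna2 fell by 0.67. On array B, 0 of 6 were called.

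Other tyrosine phosphatases were set beside Ptprv for both comparisons. Of 20 listed receptor-type members, 17 had a probe set on array A and 11 were tested. Irradiation raised 1 on average, Ptpre, by 0.68 (0.77 in mutant and 0.60 in wild type cells), against 7.38% of all probe sets. There were 2 rises when the replicate number was a block, in a fit that called 3418 of 13582 probe sets. For genotype, averaged over irradiation, 1 was higher in the mutant, Ptprf, by 0.40, and 1 was lower, Ptpre, whose difference was -0.55. In that comparison 10.6% of all tested probe sets were called, 6.57% as higher and 4.02% as lower. The block gave 3 higher and 2 lower receptor-type members, in a fit that called 3060 of 13582 probe sets. The genotype differences of the 11 ran from -0.55 to 0.40, against 2.70 for Ptprv. On array B, 0 of 5 were called in either comparison.

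Among the phosphatases without a membrane domain, 8 were tested on array A. With irradiation Ptpn14 rose by 0.91 and Ptpn12 fell by 0.32 on average, where 7.38% of all probe sets rose and 5.47% fell. On array B, Ptpn14 rose by 1.37, with 1.35 in mutant and 1.39 in wild type cells. In wild type cells Ptpn14 on array B and Ptpre on array A thus rose at an adjusted p under 0.05. Ptprv, at 0.18 on array A, did not. On array A, 0 of the 8, Ptpn14 included, were called in either genotype alone, so Ptpn14 was called there only on average. For genotype, Ptpn21 was lower in the mutant on array A, with a difference of -0.35, and 0 of 8 were higher. Of all probe sets 6.57% were higher and 4.02% lower. With the replicate block 1 of the 8 was higher and 1 lower, in a fit that called 3060 of 13582 probe sets. Ptpn7, which overlaps Ptprv, had no probe set of its own.

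The genes around the insulin receptor and osteocalcin, through which Ptprv has been described in mouse bone, had irradiation effects between -0.38 and 0.51 on array A, averaged over the genotypes. Of the 15 tested, 3 rose and 1 fell, against 7.38% and 5.47% of all probe sets. The rises were 0.51 for Tcirg1, a proton pump subunit, 0.24 for Vkorc1, an enzyme of the vitamin K cycle, and 0.19 for the kinase Akt1. The insulin receptor substrate Irs1 fell by 0.19. When replicate number was a block 4 rose and 2 fell, in a fit that called 3418 of 13582 probe sets. Insr, the insulin receptor, was tested on array B, and its change was -0.19 in mutant and -0.05 in wild type cells, not called in either. On that array 0 of 5 were called on average. For genotype, 3 of the 15 on array A were higher in the mutant and 2 lower, against 6.57% and 4.02% of all probe sets. The higher ones were Ctsk, a protease of bone resorption, by 0.72, Vkorc1 by 0.31 and Irs1 by 0.22. The lower ones were Tnfrsf11b, the decoy receptor osteoprotegerin, at -0.86 and the transcription factor Foxo1 at -0.23. On array B, 0 of 5 were called for genotype.

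Markers of fibroblasts and of the cell types in which Ptprv has been described were checked on both array types. All 9 osteoblast markers with a probe set on array A had means under 4.96, and their mean level ranged from 3.40 to 3.65 in irradiated mutant, 3.50 to 3.66 in unirradiated mutant, 3.42 to 3.52 in irradiated wild type and 3.43 to 3.55 in unirradiated wild type cells. Of 11 markers of testis somatic and germ cells, 10 were under 4.96. The exception was Inhbb, an inhibin subunit, which rose by 1.21 in mutant and 0.86 in wild type cells. All 11 markers of pluripotent cells were under 4.96 as well. On array B, where the mean needed was 3.36, both osteoblast markers (Dmp1 and Ifitm5), the single testis marker (Cyp11a1) and both pluripotent markers (Utf1 and Esrrb) reached it, and 0 of them were called for genotype or irradiation averaged over the other factor. The part of these markers in the level of Ptprv was not tested.

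Some fibroblast markers differed with genotype. All 18 with a probe set were tested on array A. Averaged over irradiation, 6 were higher in the mutant and 0 lower, against 6.57% and 4.02% of all probe sets. With the replicate block 14 were higher and 0 lower, in a fit that called 3060 of 13582 probe sets, against 1439 without it. Without the block, 1 of 18 was higher within irradiated cells alone and 1 within unirradiated cells alone. Those fits called 516 and 526 of 13582 probe sets in either direction. On array B, 0 of 4 were called, with differences from -0.19 to 0.21. The mean level of the 18 ranged from 11.01 to 11.33 in irradiated mutant and 11.12 to 11.49 in unirradiated mutant cells, against 10.68 to 10.79 in irradiated and 10.80 to 10.97 in unirradiated wild type cells. Dcn, the matrix proteoglycan decorin, was higher by 2.01, and Lum, the related lumican, by 1.46. With irradiation 0 of the 18 rose and 5 fell on average, against 7.38% and 5.47% of all probe sets. The irradiation effects ran from -0.72 to 0.13, and 3 fell in mutant and 3 in wild type cells. In such bulk extracts more cells of one kind and more RNA per cell cannot be told apart. The part of these markers in the Ptprv difference was not tested.

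No tested neighbour of Ptprv on chromosome 1 had a genotype difference of its size. In the gene order, the 10 nearest genes with a probe set on each side were taken, 20 in all, of which 17 were tested. On array A, 10 were tested, with genotype differences from -0.53 to 0.14 and a median of 0.03. Of these, 0 were higher in the mutant and 2 lower, against 6.57% and 4.02% of all probe sets. The 2 lower ones were Ube2t, a ubiquitin-conjugating enzyme, at -0.29 and Rnpep, an aminopeptidase, at -0.31. With the replicate block 1 was higher and 3 lower, in a fit that called 3060 of 13582 probe sets. On array B, 10 were tested with a median of 0.03. Without the block 0 were higher and 1 was lower, where 1.9% of probe sets were called, 0.948% as lower. With the block 1 was higher and 1 lower, without a count over all probe sets of array B to set beside them.

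The lower neighbour on array B was Shisa4, which lies 12 genes from Ptprv. It averaged 7.24 ± 0.15 in irradiated mutant, 6.61 ± 0.08 in unirradiated mutant, 8.61 ± 0.12 in irradiated wild type and 8.07 ± 0.10 in unirradiated wild type cells. The genotype difference was -1.41 (SE 0.06, limma adjusted p = 5.43e-09), opposite in sign to that of Ptprv. Shisa4 rose with irradiation by 0.58 on average. Lgr6, the gene next to Ptprv and a receptor for R-spondins, differed by 0.05 on array B and was not called.

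**Figure D3:**
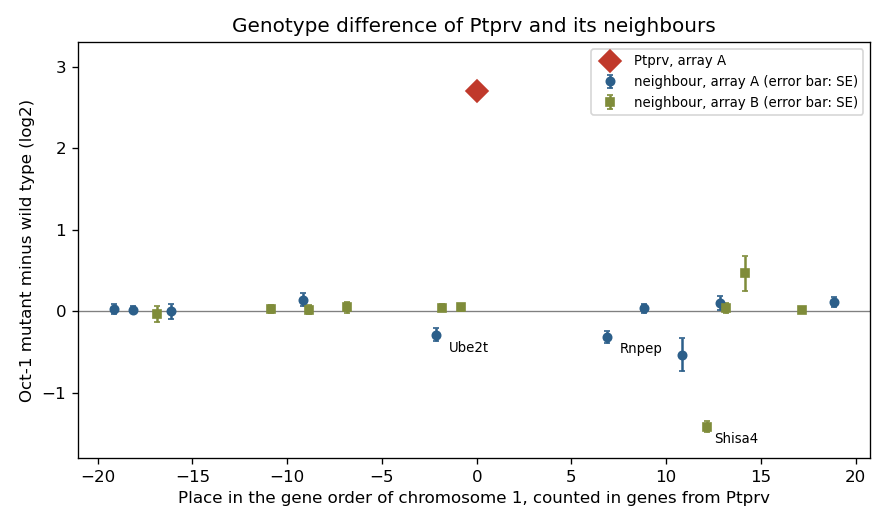
Oct-1 mutant minus wild type difference (log2, averaged over irradiation) of Ptprv (red diamond) and its tested neighbours on array A (circles) and array B (squares), with bars for the SE, against their place in the gene order of chromosome 1. Ptprv stands at 2.70, while the neighbours lie between -1.41 and 0.47, and the 3 named ones were called as lower in the mutant.

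The genes whose pattern over the 16 extracts of array A was most like that of Ptprv were found by Pearson r of log2 values among 12531 tested probe sets of a single other gene. The 5 highest were Tmem176a (r = 0.958), Lgals9, the lectin galectin-9 (0.955), Cdo1, cysteine dioxygenase (0.954), Gpx3, a secreted glutathione peroxidase (0.952), and Ripk3, a kinase of programmed necrosis (0.949). These values describe likeness across 4 groups and 2 number runs that all probe sets share, and 43 probe sets had an r above 0.9. The 5 genes resemble Ptprv mainly in the step between genotypes.

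Cdo1 ranged from 7.41 to 7.81 in irradiated mutant and 7.26 to 7.63 in unirradiated mutant cells, against 6.16 to 6.22 in irradiated and 5.60 to 6.46 in unirradiated wild type cells. Gpx3 ranged from 8.85 to 9.06 and 8.35 to 8.83 in the same mutant groups, against 7.36 to 7.61 and 7.05 to 7.45 in the wild type groups. The genotype differences of the 5 were 0.82 to 1.44, smaller than the 2.70 of Ptprv. Their irradiation effects in mutant cells were 0.21 to 0.40, against 1.42 for Ptprv.

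The 5 probe sets that ran most opposite to Ptprv belonged to 4 genes. They were Idh3a, a subunit of mitochondrial isocitrate dehydrogenase (r = -0.963), the atypical kinase Mapk6 (-0.945), Gas5, a noncoding RNA that hosts small nucleolar RNAs (-0.940 and -0.938 by 2 probe sets), and the RNA helicase Ddx39a (-0.932). By its first probe set Gas5 averaged 7.51 ± 0.19 in irradiated mutant, 7.74 ± 0.29 in unirradiated mutant, 9.50 ± 0.22 in irradiated wild type and 9.86 ± 0.36 in unirradiated wild type cells. The genotype differences of Gas5 were -2.05 and -1.88 by its 2 probe sets, and those of the other 3 genes were -0.24 to -0.40. Gas5 lies on the chromosome of Ptprv and Pou2f1, between them in the gene order. Its place is 343 counted in genes from Ptprv and -121 from Pou2f1. The part of that place in its difference was not tested.

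The order of likeness depended on the measure. After the mean of each number run was taken from every probe set, the 5 most like Ptprv were Tmem176a, Map1lc3a, Gas6, Mfap2 and Crip1, which share 1 gene with the first 5. By Spearman's rho they were Ccl2, Fxyd6, Lgals3bp, Cdo1 and Gbp2, which also share 1. The genotype difference of Fxyd6 was 2.53, near the 2.70 of Ptprv. Its wild type means, 4.44 irradiated and 3.80 unirradiated, also lie under 4.96. Irradiation changed it by 0.32 in mutant and 0.64 in wild type cells, called in neither. The other genes of this paragraph had genotype differences from 0.47 (Map1lc3a) to 1.41 (Cdo1).

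**Figure D4:**
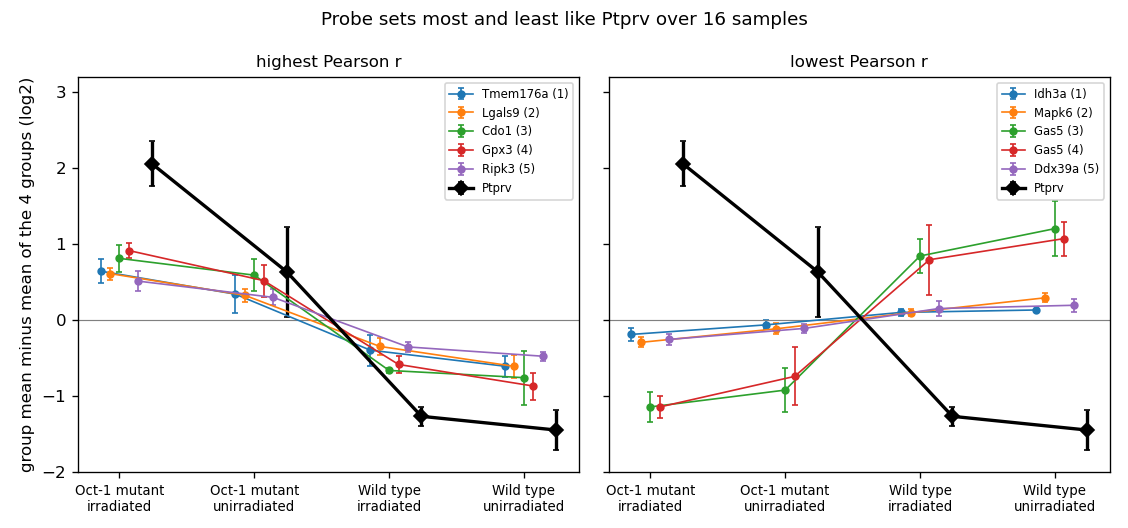
Group means of Ptprv (black) and of the 5 probe sets with the highest (left) and the 5 with the lowest (right) Pearson r with it over 16 extracts, each minus its mean over the 4 groups (log2), with bars for the SD over 4 replicates. The like genes step down between the mutant and wild type groups as Ptprv does, and their increase in irradiated over unirradiated mutant cells was 0.21 to 0.40, against 1.42 for Ptprv.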

How the data were processed

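Values are log2 probe set summaries as deposited by the authors; their summarisation, scaling and genome build are not given in the sources used, and the log base was taken from the lowest and highest values, 0.265 and 15.75 for array A, and 0.0973 and 15.51 for array B. No further scaling was applied. Of 22690 and 22575 probe sets, 64 controls on each array type were left out, and 20393 and 14674 had 1 gene in the platform annotation, with 20364 and 14499 symbols updated through gene identifiers. Each array type was fitted with limma 3.58.1 in R 4.3.3 (4 group means, intensity trend, Benjamini-Hochberg adjustment over all tested probe sets, calls at an adjusted p under 0.05). The script was tested on simulated data. Tables and figures used Python 3.11.15, pandas 2.3.3, scipy 1.17.1 and matplotlib 3.10.9.

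The gene and the lists were chosen with earlier results of these data known. Of each list the text names the 4 called genes with the lowest adjusted p for the average irradiation effect (or all, if at most 6 were called), plus, for phosphatases, those called for genotype; a gene was represented by its probe set with the highest mean. Dcn, Lum, Trp53inp1, Tnfrsf10b, Phlda3, Atm, Insr, Ctsk, Tnfrsf11b, Foxo1, Gadd45a and Sesn1 fall outside that rule. So do the cell type markers and the sex-linked genes. All of these were named after their values were seen. Pairing by replicate number was checked with each sample's deviation from its group mean. Samples sharing a number had correlations between 0.32 and 0.72 (array A) and between 0.24 and 0.60 (array B), above 0.1 in 24 of 24 pairs of each, so the pairing comes from the titles' numbers and these values. Samples of one run with another number reached similar medians (0.56 against 0.58 on array A), so the pairing is mostly that of the runs. Precision is limited by 4 arrays per group.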

Additional observations from a re-analysis of the deposited data

Results flagged for a closer look

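The irradiation effect on Ptprv over replicate number pairs differed between genotypes by 1.24 (mutant minus wild type, log2), with every mutant pair above every wild type pair. It is listed because an exact permutation over pairs passed its threshold, but the gene was picked with its values known and passed the filter through its mutant values. The limma adjusted p of this difference was 1.00, so it is given as a value without support from a test.

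Single extracts stood apart from the other 3 of their group by a gap past Dixon's critical value in 7 of 168 groups checked on array A and array B, where chance gives about 1 in 20. Cdt1 was high in mutant irradiated replicate 2, at 9.35 against 9.13 to 9.16 in the others. Vkorc1 was low in mutant unirradiated replicate 1, at 10.25 against 10.62 to 10.65. Among irradiated wild type extracts, Akt1 was low in replicate 3 at 11.16, Idh3a was low in replicate 4 at 10.99, and Usp7 was high in replicate 1 at 10.20. Among unirradiated wild type extracts, Gas5 was high in replicate 3 at 9.13 by its second probe set, and Lgals9 was low in replicate 1 at 8.63. None of the 4 groups of Ptprv had such an extract.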

How the results depend on the processing

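The increase of Ptprv with irradiation in mutant cells stayed positive and past the threshold under 8 of 8 alternatives, with values from 1.14 to 1.70, and under 16 of 16 left-out extracts, with values from 1.20 to 1.61. So did the average effect, at 0.54 to 1.07 and 0.69 to 0.89. These fits use the same extracts, so they do not remove the limit set by the choice of the gene. The wild type effect kept its sign and missed the threshold under 7 of 8 alternatives, and was -0.069 (adjusted p = 0.887) in the second number run alone; the cause was not tested. The difference of effects was 1.21 to 1.27 under 8 alternatives and 1.02 to 1.42 with an extract left out, with adjusted p-values of at least 0.657, the value with the number run as a block. With the replicate number as a block, the adjusted p was 3.97e-05 for the mutant effect, 0.000153 for the average and 1.00 for the difference of effects, and the block changed none of the 4 Ptprv calls. The average genotype difference was 2.43 to 2.98 under its 6 alternatives. With the filter at the 60th percentile Ptprv was not tested.

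The number of probe sets called on array A rose with the replicate block: to 1737 from 632 for irradiation in mutant, 1410 from 521 in wild type and 3418 from 1745 on average, and to 1418 from 516, 1506 from 526 and 3060 from 1439 for genotype in irradiated cells, unirradiated cells and on average. The number run block gave 1703, 1389, 3391, 1405, 1472 and 3034 in the same order. The second run alone gave 357 for irradiation in mutant and 1155 on average. Leaving out replicate 1 or replicate 2 of unirradiated wild type cells gave 344 and 343 for genotype in unirradiated cells. Array values carry no background measure here, so changes among the low wild type values have limited precision.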
